A study of Mus musculus with 48 samples.

Results

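The NAD synthesis and sirtuin genes examined here were 10 listed genes: Nmrk2, Nampt, Nmnat1, Nmnat3, Nadk, Sirt1, Sirt3, Sirt5, Cd38 and Nnmt. All 10 were found by symbol among the 30743 gene rows of the deposited count table, and all 10 passed the filter on low counts in both sets of libraries. The members were chosen by the level of Nmrk2 in the C3H nucleus, which was already known (9.39 CPM in C3Hn and 1.89 CPM in C57n sham cells, CPM being counts per 1 M counts), so the nuclear difference in sham cells is given as a description without a test. RNA from cardiomyocytes of wild-type and MNX mice was sequenced in 48 libraries. In MNX mice the nuclear (n) and mitochondrial (mt) genomes of the inbred strains C57BL/6J (C57) and C3H/HeN (C3H) are exchanged. Cells were isolated with collagenase after the right ventricle and atria had been removed, on day 3, and the labels give no age.

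In set A (24 libraries) the titles carry the surgery, with 3 libraries each of ACF and sham under the titles C3H_wt, C3H_MNX, C57_wt and C57_MNX. ACF, commonly short for aortocaval fistula, is the surgery by which volume overload was produced. The genotype label of C3H_wt is C3Hn:C3Hmt, that of C57_wt is C57n:C57mt, that of C3H_MNX is C57n:C3Hmt and that of C57_MNX is C3Hn:C57mt. In set B (24 libraries) no title carries a surgery word and the treatment label is sham. It holds 6 libraries each of C3Hn:C3Hmt, C3Hn:C57mt, C57n:C3Hmt and C57n:C57mt. The titles of its C3Hn:C3Hmt and C57n:C57mt libraries read C3H_WT and C57_WT. CPM were scaled within each set, so levels were not compared between sets. The labels do not say whether each library is a separate animal, so p-values measure the spread between libraries, which may be technical.

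NAD carries electrons in fuel oxidation and is also consumed as a substrate by sirtuins, poly(ADP-ribose) polymerases and NAD glycohydrolases, which release nicotinamide. Cells rebuild NAD from nicotinamide through Nampt, the rate-limiting salvage enzyme, or from nicotinamide riboside through the riboside kinases, of which Nmrk2 is the form enriched in striated muscle and is known to be induced in failing and injured mouse hearts. Both routes meet at nicotinamide mononucleotide, which the Nmnat enzymes convert to NAD. Sirt3 and Sirt5 are mitochondrial deacylases, whereas Sirt1 is chiefly nuclear.

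Of the 10 genes, 3 did not overlap between C3Hn and C57n libraries of set B, namely Nmrk2, Nmnat1 and Nmnat3. Of the 13395 genes tested there, 6.1% did not overlap. The list was chosen by this contrast, so nothing is read from the count. The sequence upstream of the annotated starts of these 3 genes is shown because it is the stretch next to the transcripts that differed. The RefSeq promoter table used here (GRCm38.p6) was matched for 9 of the 10 genes, and a window of Nnmt is not shown. The windows are the 250 bases before the start, in 5′ to 3′ order of the gene: chr10:81202038-81202287 on the minus strand for Nmrk2, chr4:149485211-149485460 on the minus strand for Nmnat1 (the first of 2 starts) and chr9:98296320-98296569 on the plus strand for Nmnat3. Capitals mark TATAAA, which was searched on both strands together with CATTCC.
Nmrk2: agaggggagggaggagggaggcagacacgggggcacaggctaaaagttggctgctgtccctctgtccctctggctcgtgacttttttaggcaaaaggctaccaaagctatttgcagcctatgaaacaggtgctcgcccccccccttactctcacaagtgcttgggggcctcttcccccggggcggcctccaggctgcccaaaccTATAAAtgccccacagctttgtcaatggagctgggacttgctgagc
Nmnat1: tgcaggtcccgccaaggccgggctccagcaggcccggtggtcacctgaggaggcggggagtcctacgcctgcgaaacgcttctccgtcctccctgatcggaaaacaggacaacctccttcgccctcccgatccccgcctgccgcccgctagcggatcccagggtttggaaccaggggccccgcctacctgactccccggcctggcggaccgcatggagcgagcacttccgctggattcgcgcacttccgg
Nmnat3: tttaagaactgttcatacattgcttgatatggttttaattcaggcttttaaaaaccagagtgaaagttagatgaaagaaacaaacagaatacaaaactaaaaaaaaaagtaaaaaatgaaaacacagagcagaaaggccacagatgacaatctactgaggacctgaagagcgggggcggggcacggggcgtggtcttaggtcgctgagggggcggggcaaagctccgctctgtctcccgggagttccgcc
The Nmrk2 window holds 1 TATAAA, at bases -46 to -41 before the start, and the windows of the other 8 genes hold none. For Nmnat1, Nadk and Sirt3, each with 2 starts, only the window of the first start was counted. TATAAA occurs in 12.4% of the 32851 windows of this length in the table, and CATTCC, in none of the 3 windows shown, in 12.6%. The dinucleotide CG occurs 5 times in the Nmrk2 window, 24 times in that of Nmnat1 and 9 times in that of Nmnat3, against a median of 6 over all windows. These are reference bases, so they do not show what the C3H strain carries there.

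Library totals ran from 15.89 M to 26.09 M counts. All 10 cardiomyocyte markers were detected in every library, with a summed level of 71150 to 95780 CPM in set B and 45870 to 80120 CPM in 23 libraries of set A. The remaining set A library, C57_wt ACF library 489, had 9701 CPM of cardiomyocyte markers and 69570 CPM of erythrocyte markers, against at most 295.7 CPM in the others. Its fibroblast markers (2098 CPM) and macrophage markers (383.8 CPM) were the highest in set A. C3H_MNX ACF library 6756 came next for both, with 1069 and 203.5 CPM, against 195.3 to 643.9 CPM and 46.8 to 140.9 CPM in the other 22. Of these 22, C57_MNX sham library 6763 was the highest for both, at 643.9 and 140.9 CPM. It also had 1636 CPM of endothelial markers, against 425.9 to 944.9 CPM in the other 11 sham libraries, and 48870 CPM of cardiomyocyte markers, the lowest of the sham libraries. In bulk RNA, fewer cells of a type and less RNA per cell cannot be told apart. The labels and the titles of the set A exchange groups name different nuclei. On 33 genes that set C3Hn above C57n in set B by a gap of over 1.5 (log2), scored so that the C57n mean is 0 and the C3Hn mean 1, the C3H_MNX libraries scored 0.72 to 0.83 and the C57_MNX libraries -0.16 to -0.07. Set A nuclei are therefore given by title, and the main tests of the nuclear difference in ACF libraries are given for the wild-type groups as well, where title and label name the same nucleus.

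Nmrk2 was the member with the widest nuclear difference on the higher side, and the order of its levels in set B followed the nucleus. It ran from 2.775 to 13.35 CPM (median 8.38) in C3Hn:C3Hmt and from 8.358 to 13.26 CPM (median 10.1) in C3Hn:C57mt. It ran from 0.757 to 2.255 CPM (median 2.02) in C57n:C3Hmt and from 1.006 to 2.733 CPM (median 2.03) in C57n:C57mt. Every C3Hn library lay above every C57n library, and the margin was narrow because 1 C3Hn:C3Hmt library, number 22, stood at 2.775 CPM.

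The mean Nmrk2 level was 9.39 ± 2.91 CPM in C3Hn and 1.89 ± 0.629 CPM in C57n (SD, n = 12 each), a log2 difference of 2.31 with a standard error (SE) of 0.202. By mean, C3Hn:C57mt came first (10.5 ± 1.83 CPM), then C3Hn:C3Hmt (8.31 ± 3.53 CPM), C57n:C57mt (2.00 ± 0.682 CPM) and C57n:C3Hmt (1.77 ± 0.612 CPM; SD, n = 6 each). The ranges of neighbours that share a nucleus overlapped. The titles also carry a code of L and a digit, of unstated meaning, which in set B is L3 in all C3Hn:C3Hmt and L8 in all C57n:C57mt libraries. Within the code L2, Nmrk2 ran from 8.358 to 11.92 CPM in 4 C3Hn:C57mt libraries and from 1.328 to 2.255 CPM in 4 C57n:C3Hmt libraries, whose mitochondria also differ. The part of the code in the pooled difference was not tested.

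**Figure D1:**
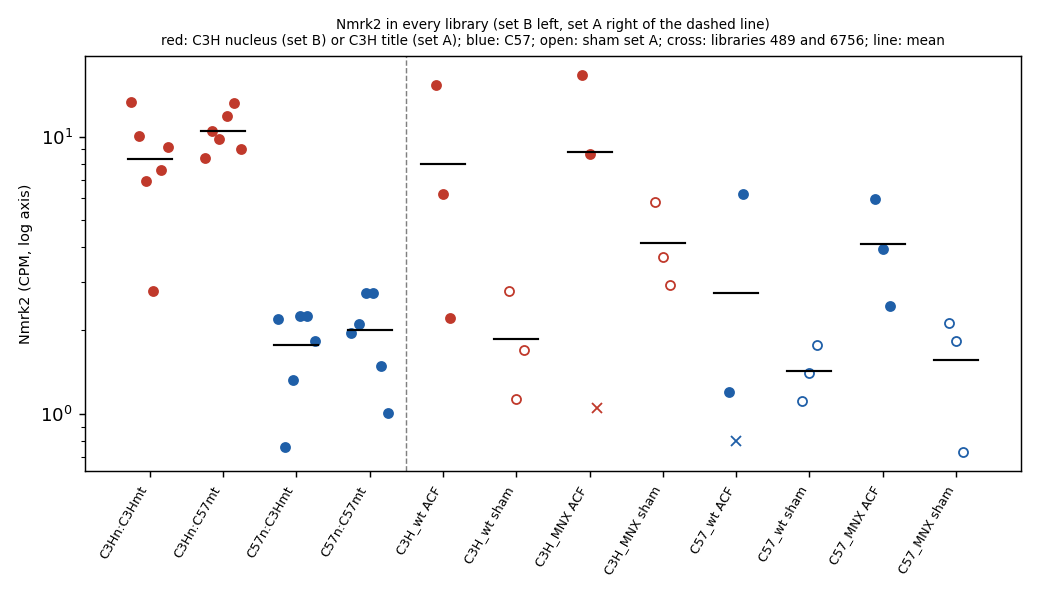
Nmrk2 level in CPM on a log axis for each of the 48 libraries by group, with a line at each group mean. In set B all 12 C3Hn libraries lie above all 12 C57n libraries, and in set A 8 of 12 ACF libraries lie above the highest sham library of their group, with the crossed libraries 489 and 6756 lowest in theirs.

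Nmnat1, the NAD-forming enzyme of the nucleus, and Nmnat3, its relative commonly assigned to mitochondria, separated the strains in opposite directions. Nmnat1 ran from 18.88 to 25.01 CPM (median 22.8) in C3Hn and from 14.49 to 18.58 CPM (median 16.9) in C57n, a log2 difference of 0.42 (SE 0.0475). Nmnat3 ran from 9.275 to 14.66 CPM (median 12.0) in C3Hn and from 14.84 to 18.19 CPM (median 16.6) in C57n, a log2 difference of -0.46 (SE 0.0672). Neither gene overlapped between the nuclei, though both came close at the inner ends of the ranges. With Nmrk2 these were the 3 of 10 members without overlap, where 6.1% of the 13395 genes tested in set B had none. In the fit 35.7% of those genes passed for the nucleus. The choice of members rests on this contrast, so nothing is read from that count.

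Nnmt, the enzyme that methylates nicotinamide and so removes it from salvage, averaged 0.209 ± 0.0826 CPM in C3Hn and 0.865 ± 0.581 CPM in C57n (SD, n = 12 each), a log2 difference of -1.95. Its counts were few, from 0 to 8 in C3Hn and from 8 to 59 in C57n, and the ranges met at 0.334 and 0.321 CPM. The highest C57n values, 2.266 and 1.711 CPM, came from C57n:C57mt libraries 1 and 2. Library 1 also had the highest macrophage marker sum of set B (229.9 CPM), while the fibroblast markers of both (440.1 and 433.4 CPM) were below those of library 3 (480.2 CPM). The part of these cells in the Nnmt level was not tested.

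The 6 remaining members overlapped between the nuclei of set B. Sirt3 averaged 37.2 ± 5.51 CPM in C3Hn and 27.8 ± 6.51 CPM in C57n (log2 difference 0.42, SE 0.108). Its ranges overlapped, at 26 to 44.7 CPM in C3Hn and 18.82 to 40.95 CPM in C57n, and the highest C57n values came from C57n:C57mt libraries 1 and 2 at 38.4 and 40.95 CPM. Cd38, an NAD glycohydrolase, had a log2 difference of -0.34, Nampt one of -0.19, and Nadk, the kinase that turns NAD into NADP, one of -0.18. The log2 difference of Sirt5 was 0.16 and that of Sirt1 was -0.08. With the L code as a covariate Nmrk2 stood at 1.956 (SE 0.472), Nadk stood at 0.15 and Cd38 at 0.27, so the sign of Nadk and Cd38 turned. In the same fit Nampt stood at -0.61, Sirt1 at -0.26, Nmnat3 at -0.65 and Nnmt at -1.235.

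ACF was then set against sham, a contrast the list did not rest on. Nmrk2 was higher after ACF in most libraries and did not pass the threshold. It measured 15.4, 6.235 and 2.219 CPM in C3H_wt ACF libraries, against 2.777, 1.13 and 1.702 CPM in C3H_wt sham libraries. In C3H_MNX it measured 16.73, 8.675 and 1.053 CPM after ACF, against 5.805, 3.693 and 2.916 CPM after sham. In both groups 2 of 3 ACF libraries stood above every sham library, and the lowest ACF library of C3H_MNX stood below them all.

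In C57_wt Nmrk2 measured 1.204, 0.7975 and 6.19 CPM after ACF, against 1.112, 1.403 and 1.771 CPM after sham. In C57_MNX it measured 5.968, 3.93 and 2.44 CPM after ACF, against 2.127, 1.838 and 0.7255 CPM after sham. Only C57_MNX had no overlap between ACF and sham, and C57_wt had 1 high ACF library, number 490, with the other two inside or below the sham range. Over the 4 genotypes 8 of 12 ACF libraries exceeded the highest sham library of their group and 2 fell below the lowest. For Sirt5 and for Nnmt 6 of 12 exceeded it. The share of all genes with such counts was not computed.

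The mean ACF effect on Nmrk2 over the 4 genotypes was a log2 fold change of 1.38 (SE 0.409), or 2.61-fold, with an unadjusted p of 0.00304 and an adjusted p of 0.174 (edgeR, quasi-likelihood F test, adjusted over 13440 genes by Benjamini and Hochberg's method). By DESeq2 the same difference had an adjusted p of 0.0353, and with the L code as a covariate the log2 fold change was 0.95 (SE 0.475) with an adjusted p of 0.472 by edgeR. The 2 libraries in which Nmrk2 fell below sham were 489 and 6756, those with the marker levels given above, whose part in the result was not tested. Without both, the log2 fold change was 1.62 with an adjusted p of 0.0121 by edgeR, and without 489 alone it was 1.496 with an adjusted p of 0.0748. Both are ACF libraries with low Nmrk2, so leaving them out raises the ACF mean. Sham library 6763, whose marker levels are given above and whose part was not tested either, had the lowest Nmrk2 of its group (0.7255 CPM), and without all 3 the value was 1.54 with an adjusted p of 0.0176, a setting chosen after the values were seen. Without C57_wt ACF library 490 it was 1.02, the lowest value when 1 library was left out.

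By genotype the log2 fold change of Nmrk2 was 2.08 (SE 0.811) in C3H_wt, 1.10 (SE 0.769) in C3H_MNX, 0.96 (SE 0.841) in C57_wt and 1.39 (SE 0.85) in C57_MNX. None passed, with edgeR adjusted p-values of 0.548 to 1. Without library 490 the C57_wt value was -0.50, so its sign rests on that library, and with the L code as a covariate it was -0.48. The other genotypes also leaned on single ACF libraries: C3H_wt stood at 1.18 without library 470, and C3H_MNX at 0.24 without library 6650 and at 1.62 without library 6756. C3H_MNX stood at 1.86 and C57_MNX at 0.70 with the L code as a covariate. The effect in C3H titles minus that in C57 titles was 0.41 (SE 0.816, edgeR adjusted p = 1), with -0.04 without library 470 and 1.15 without library 490, so a difference between the strains in the Nmrk2 response was not detectable at this number of libraries.

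By edgeR 0 of the 10 members passed for the mean ACF effect, where 0.275% of 13440 genes did, and 1 of 10, Nmrk2, had an unadjusted p below 0.05. By DESeq2 the count was 1 of 10, where 1.82% of genes passed. By edgeR it was 0 of 10 without library 489, where 0.923% of genes passed, 1 of 10 without libraries 489 and 6756, where 2.55% did, 1 of 10 without library 6763 as well, where 2.47% did, and 0 of 10 with the L code as a covariate, where 0.193% did. The median log2 fold change of the members was -0.01, and that of all genes tested was 0.00. Within single genotypes 0 of 10 members passed by edgeR and by DESeq2. By edgeR 0% of genes passed in C3H_wt, C57_wt and C57_MNX and 0.00744% in C3H_MNX. By DESeq2 0.618% of genes passed in C3H_wt, 0.0223% in C3H_MNX, 1.31% in C57_wt and 0.00744% in C57_MNX. By edgeR the number of members with an unadjusted p below 0.05 was 1 in C3H_wt and 0 in the other 3 genotypes.

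Nampt averaged 120.5 ± 35.5 CPM after ACF and 147.1 ± 21.2 CPM after sham (SD, n = 12 each). For Nampt 7 of 12 ACF libraries lay below the lowest sham library of their group and 1 above the highest. The share of all genes with such a count was not computed. The log2 fold change of Nampt was -0.29 (SE 0.174, edgeR adjusted p = 0.579), and -0.18 without library 489, where it measured 36.32 CPM. The lower Nampt values therefore did not pass the test either way. The 95% interval of the Nampt change ran from -0.63 to 0.05.

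The sirtuins gave small differences after ACF. Sirt1 had a log2 fold change of -0.06 (95% interval -0.22 to 0.10) and Sirt3 one of -0.06 (-0.29 to 0.17). Sirt5, which removes succinyl and malonyl groups from mitochondrial proteins, had one of 0.12, and 0.23 without library 489 (edgeR unadjusted p = 0.037, adjusted p = 0.347). In C3H_wt all 3 ACF libraries of Sirt5 exceeded all 3 sham libraries, at 16.98 ± 1.43 CPM after ACF and 13.58 ± 1.31 CPM after sham (SD, n = 3 each). The same held for Sirt3 in C3H_wt, and for Nmrk2, Nmnat1 and Nnmt in C57_MNX. For Sirt1 all 3 ACF libraries of C57_MNX lay below all 3 sham libraries. The share of all genes separated in this way was not computed.

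Of the others, Nmnat1 (-0.06), Nmnat3 (-0.11), Nadk (0.15) and Cd38 (0.04) lay within 0.15 of no change on the log2 scale. Library 489 moved several of them: it had 34.17 CPM of Nadk, against 9.142 to 18.22 CPM in the other ACF libraries, and 2.699 CPM of Nmnat1, against 10.97 to 20.05 CPM. Without it the log2 fold change was -0.01 for Nadk, 0.06 for Nmnat1, 0.01 for Sirt3 and -0.14 for Cd38, each of the opposite sign. For Nnmt the change was 0.85 (SE 0.476, edgeR adjusted p = 0.537) and was 0.30 without library 489, in which it measured 4.049 CPM from 66 counts, and 0.01 without libraries 489, 6756 and 6763.

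**Figure D2:**
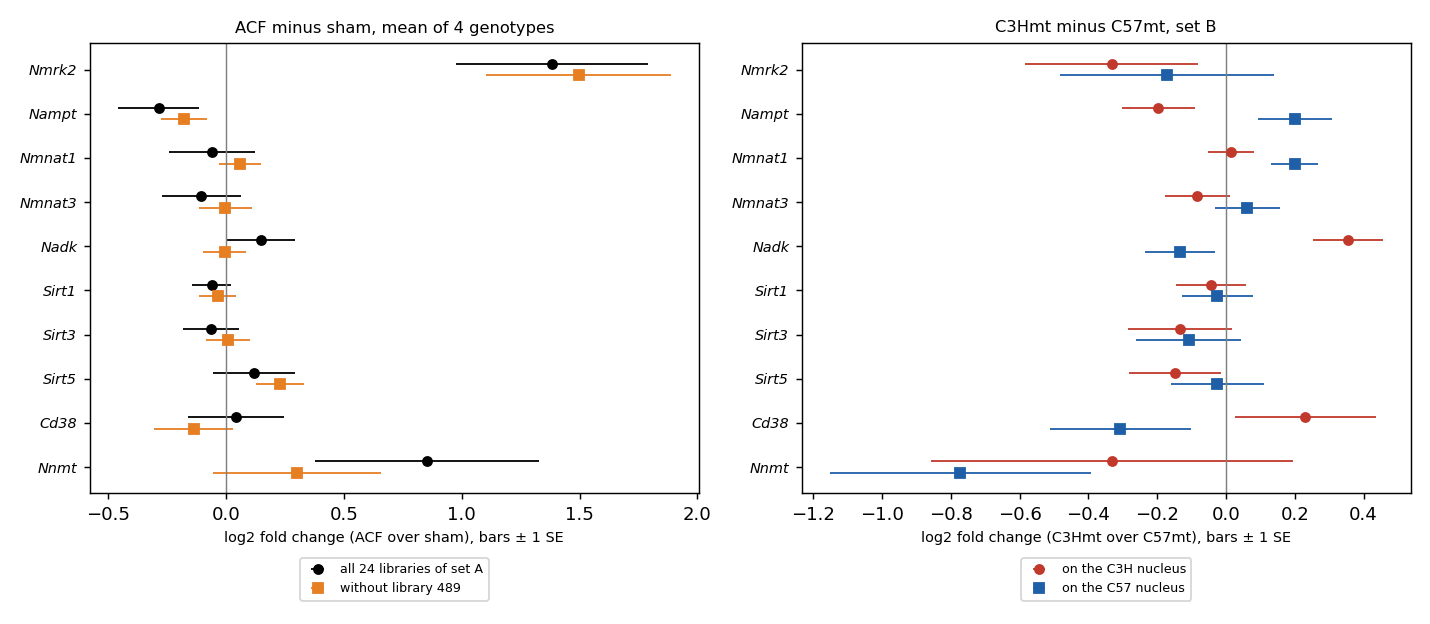
Log2 fold change of each of the 10 members with bars of ± 1 SE, for ACF over sham as the mean of 4 genotypes of set A (left, with and without library 489) and for C3Hmt over C57mt on each nucleus in set B (right). Nmrk2 lies farthest to the right for ACF at 1.38 (1.496 without library 489), and on the C3H nucleus Nadk has the highest mitochondrial value, 0.35.

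The nuclear difference was then tested in the 12 ACF libraries, which are not among the sham libraries described above. The list was chosen by the nuclear difference of Nmrk2 with earlier results of these data known. The p-values of this contrast, above all those of Nmrk2, are therefore no independent support for that choice. Of the 10 members 2 passed by edgeR, Sirt3 higher and Nnmt lower in the libraries with C3H titles, where 13.6% of 13440 genes passed (6.23% higher, 7.4% lower). The median log2 fold change was 0.08 over the members and -0.03 over all genes tested. The same 2 members passed in the wild-type groups alone, where 12.1% of genes passed (4.64% higher, 7.46% lower). By DESeq2 both members passed too, by title (17.4% of genes) and in wild type (17.6%). With the L code as a covariate 0 of 10 passed by edgeR, by title (5.7% of genes) or in wild type (1.36%). Without library 489 there were 2 by title, Sirt3 and Nmnat3 (16.7% of genes), and 0 in wild type (7.81%).

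Sirt3, the main mitochondrial deacetylase, measured 23.68, 21.89 and 27.53 CPM in C3H_wt ACF libraries and 24.06, 21.81 and 14.44 CPM in C3H_MNX ACF libraries. It measured 16.91, 7.791 and 15.45 CPM in C57_wt ACF libraries and 14.39, 17.17 and 18.34 CPM in C57_MNX ACF libraries. All C3H titles lay above all C57 titles except library 6756, the lowest of its group at 14.44 CPM, and 7.791 CPM was library 489.

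The mean Sirt3 level was 22.2 ± 4.35 CPM under C3H titles and 15.0 ± 3.80 CPM under C57 titles (SD, n = 6 each). The log2 fold change was 0.57 (SE 0.167, edgeR adjusted p = 0.0278), and 0.44 without library 489 (edgeR adjusted p = 0.0296). Leaving out 1 library at a time, this call was lost in 5 of 24 fits, those without C3H_MNX library 6650 or 6662, C3H_wt library 486, or C57_MNX library 6658 or 6692, with edgeR adjusted p-values of up to 0.0903. In the wild-type groups it was 0.86 (SE 0.237, edgeR adjusted p = 0.0255), and without library 489 it was 0.60 with an adjusted p of 0.0809, so the wild-type call ended, though it stood without libraries 489 and 6756 together (0.60, adjusted p = 0.031). The calls ended as well with the L code as a covariate, at 0.64 (edgeR adjusted p = 0.0922) by title and at 0.90 (adjusted p = 0.273) in wild type.

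Nnmt measured 0.110, 0.228 and 0.0528 CPM in C3H_wt ACF libraries and 0.129, 0.198 and 0.806 CPM in C3H_MNX ACF libraries. It measured 0.493, 4.049 and 0.189 CPM in C57_wt ACF libraries and 1.145, 0.751 and 1.331 CPM in C57_MNX ACF libraries. The highest value under each strain came from library 6756 and library 489, and these are the libraries with the highest fibroblast and macrophage marker sums in set A. The part of those cells in the Nnmt level was not tested.

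By title Nnmt stood at -2.51 on the log2 scale (SE 0.635, edgeR adjusted p = 0.0115) and in wild type at -3.47 (SE 0.937, edgeR adjusted p = 0.0233). Without library 489 it was -1.41 by title (edgeR adjusted p = 0.0579) and -1.27 in wild type (edgeR adjusted p = 0.39), so both calls ended. Without libraries 489 and 6756 together the value by title was -1.95 (edgeR adjusted p = 0.00507) and the wild-type value was -1.26 (adjusted p = 0.279). With the L code as a covariate neither passed, at -1.71 (edgeR adjusted p = 0.211) by title and -1.61 (adjusted p = 0.65) in wild type. In sham libraries of set A Nnmt averaged 0.151 ± 0.0982 CPM under C3H titles and 0.582 ± 0.162 CPM under C57 titles (SD, n = 6 each).

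Nmrk2 in ACF libraries averaged 8.39 ± 6.56 CPM under C3H titles and 3.42 ± 2.33 CPM under C57 titles (SD, n = 6 each). The log2 fold change was 1.31 (SE 0.555, edgeR adjusted p = 0.122) by title and 1.51 (SE 0.79, edgeR adjusted p = 0.19) in wild type. The groups overlapped, in contrast to set B. By title Nmrk2 passed when library 490 was left out (2.05, edgeR adjusted p = 0.0172) and when library 6756 was (1.58, adjusted p = 0.0318). Without C3H_wt ACF library 470 it stood at 0.87 by title (edgeR adjusted p = 0.332) and at 0.62 in wild type (adjusted p = 0.644). With library 490 left out the wild-type value was 2.98 (edgeR adjusted p = 0.0252), so its size moved with single libraries.

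Without libraries 489 and 6756, 5 of 10 members passed by title, where 21.9% of genes did: Nmrk2 at 1.37 (edgeR adjusted p = 0.0334), Nmnat1 at 0.40 (adjusted p = 0.0107), Nmnat3 at -0.60 (adjusted p = 0.0116), Sirt3 and Nnmt. In wild type it was 2 of 10, Sirt3 and Nmnat3 (-0.77, adjusted p = 0.0326), where 9.82% of genes passed. With all libraries Nmnat1 had a log2 fold change of 0.50 (edgeR adjusted p = 0.20) and Nmnat3 one of -0.50 (edgeR adjusted p = 0.169). The other 5 members ran from -0.31 for Nadk to 0.16 for Cd38 and did not pass. Nadk stood at 0.02 without library 489. In wild type Nmnat1 was at 0.69, Nmnat3 at -0.38 and Nadk at -0.67, with 0.24, -0.77 and -0.03 without library 489, and none passed in either fit.

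**Figure D3:**
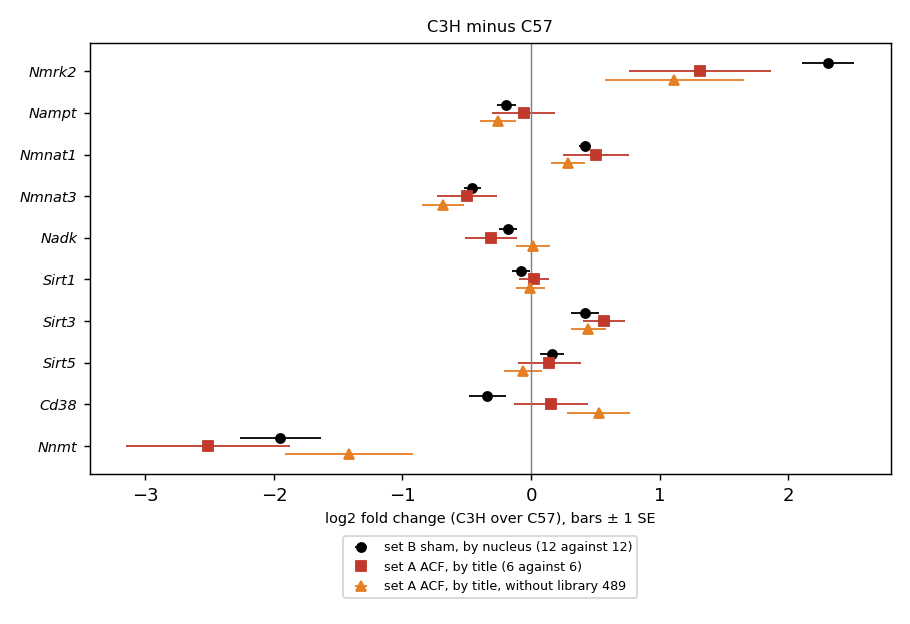
Log2 fold change of each member, C3H over C57, with bars of ± 1 SE, for set B sham by nucleus, for set A ACF by title and for set A ACF by title without library 489. Nmrk2, Nmnat1 and Sirt3 lie right of 0 and Nmnat3 and Nnmt left of 0 in all 3, while Cd38 is at -0.34 in set B and at 0.16 in ACF libraries.

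Set side by side within a library, the opposite directions of Nmnat1 and Nmnat3 gave a ratio that did not overlap between nuclei in either set. This ratio was chosen after the values of both genes were seen and has no test. In set B the outcome was fixed, since neither gene overlapped there and they differed in opposite directions. How many other gene pairs separate in this way was not examined. The ratio ran from 1.587 to 2.174 in C3Hn and from 0.884 to 1.198 in C57n in set B. In ACF libraries of set A it ran from 2.329 to 3.103 under C3H titles and from 0.846 to 1.528 under C57 titles, and in sham libraries from 2.435 to 3.127 under C3H titles and from 0.899 to 1.629 under C57 titles. Libraries 489 and 6756, which stood low for both genes (2.699 and 10.97 CPM of Nmnat1, 3.19 and 4.647 CPM of Nmnat3), had ratios on the side of their titles. In a ratio of 2 genes of the same library the scaling cancels, and the ratio shows unequal levels without saying which gene changed.

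In sham libraries of set A, Nmnat1 alone ran from 15.41 to 21.82 CPM under C3H titles and from 8.705 to 14.3 CPM under C57 titles, without overlap. It was the 1 member of 10 to do so, where 9.06% of genes did. Among ACF libraries 0 of 10 members were free of overlap, where 6.14% of genes were. There Nmnat1 ran from 10.97 to 20.05 CPM under C3H titles and from 2.699 to 15.45 CPM under C57 titles.

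**Figure D4:**
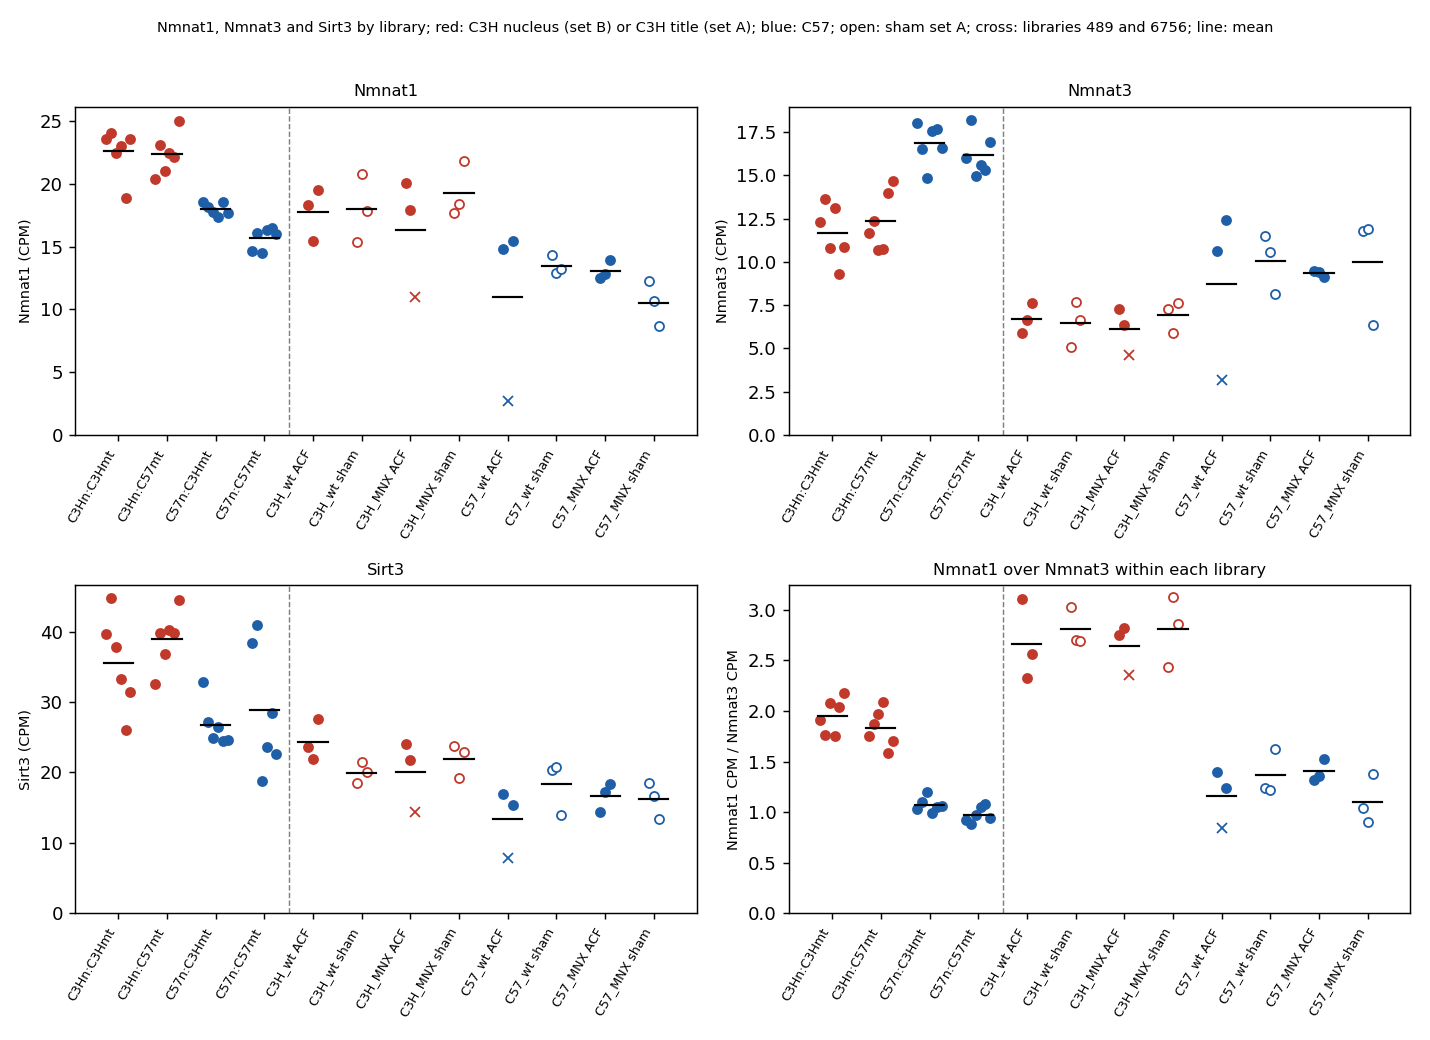
Nmnat1, Nmnat3 and Sirt3 in CPM and the ratio of Nmnat1 to Nmnat3 in each of the 48 libraries by group, with a line at each group mean. Within each set every library with a C3H nucleus or title has a higher ratio than every C57 library, with the lowest C3H ratio 1.587 in set B and 2.329 in set A.

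Exchange of the mitochondria on a fixed nucleus was examined in set B. By edgeR 0 of 10 members passed on the C57 nucleus, where 0% of 13395 genes did, 0 of 10 on the C3H nucleus, where 0.00747% did, and 0 of 10 for the difference between the nuclei, where 0% did. DESeq2 also gave 0 members in each, where 0.112% of genes passed on the C57 nucleus, 0.0523% on the C3H nucleus and 2.48% for the difference. By edgeR the number with an unadjusted p below 0.05 was 1 on the C57 nucleus, 1 on the C3H nucleus and 2 for the difference. The median log2 difference of the members was -0.07 on the C57 nucleus and -0.11 on the C3H nucleus, against -0.01 and 0.00 over all genes.

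Nadk gave the lowest p of the members on the C3H nucleus. It ran from 17.62 to 26.08 CPM (median 20.6) in C3Hn:C3Hmt and from 14.04 to 18.32 CPM (median 17.2) in C3Hn:C57mt. The highest value, 26.08 CPM, was that of library 23. That library had the highest fibroblast marker sum of set B (812.1 CPM) and 219.5 CPM of macrophage markers. The part of those cells in the Nadk level was not tested. The log2 fold change of Nadk, C3Hmt over C57mt, was 0.35 (SE 0.102, unadjusted p = 0.00186, edgeR adjusted p = 0.472), and 0.28 without library 23. Within the code L3 the 6 C3Hn:C3Hmt libraries all lay above the 2 C3Hn:C57mt libraries (14.18 and 14.04 CPM). On the C57 nucleus the Nadk change was -0.13, and the difference between the nuclei was 0.49 (SE 0.144, edgeR adjusted p = 0.107).

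Nmnat1 gave the lowest p on the C57 nucleus. It ran from 17.37 to 18.58 CPM (median 18.0) in C57n:C3Hmt and from 14.49 to 16.51 CPM (median 16.0) in C57n:C57mt, without overlap. The share of all genes without overlap in this contrast was not computed. The log2 fold change of Nmnat1 was 0.20 (SE 0.0678, unadjusted p = 0.00682, edgeR adjusted p = 0.302). With the L code as a covariate it stood at 0.23 (SE 0.096) and did not pass. Within the code L8 the 2 C57n:C3Hmt libraries (18.58 and 18.16 CPM) lay above all 6 C57n:C57mt libraries. On the C3H nucleus the Nmnat1 change was 0.01 (SE 0.0664).

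Nampt had opposite signs on the 2 nuclei, 0.20 (SE 0.107) on C57n and -0.20 (SE 0.107) on C3Hn, with a difference of -0.40 (SE 0.151, unadjusted p = 0.0147, edgeR adjusted p = 0.191). Nampt stood at 0.04 on C57n and -0.44 on C3Hn with the L code as a covariate, and at -0.11 on C3Hn without library 18. Nmrk2 had log2 fold changes of -0.17 (95% interval -0.78 to 0.44) on C57n and -0.33 (-0.83 to 0.16) on C3Hn, and the difference between the nuclei was -0.16 (SE 0.402). Nnmt had -0.77 on C57n (edgeR adjusted p = 0.448), which was -0.38 without C57n:C57mt library 1 and -0.23 with the L code as a covariate, and -0.33 on C3Hn. The changes of Nmnat3, Sirt1, Sirt3, Sirt5 and Cd38 ran from -0.31 (Cd38 on C57n) to 0.23 (Cd38 on C3Hn).

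Among other genes of NAD metabolism, none passed for ACF or for the mitochondria by edgeR with all libraries: 0 of 9 other NAD synthesis genes tested in set A (8 in set B), 0 of 4 other sirtuins, 0 of 19 other NAD consumers and clearance genes, 0 of 10 genes of the cytosolic NADH shuttles and 0 of 12 of the NADPH pool. Over all genes 0.275% passed for the mean ACF effect. For the mitochondria 0% passed on the C57 nucleus and 0.00747% on the C3H nucleus, so these counts tell little about the lists. With an unadjusted p below 0.05 for the mean ACF effect there were 0, 0, 3, 0 and 4 in that order of the lists. Over all genes it was 1524 of 13440. Without library 489, Aox1, the aldehyde oxidase that oxidizes methylnicotinamide, fell after ACF with a log2 fold change of -0.46 (edgeR adjusted p = 0.0387), against -0.47 (adjusted p = 0.067) with all libraries. Aox1 averaged 12.4 ± 2.35 CPM after ACF and 19.5 ± 2.33 CPM after sham in C3H_MNX, and 11.9 ± 4.03 CPM after ACF and 21.1 ± 3.98 CPM after sham in C3H_wt (SD, n = 3 each). In C57_MNX it averaged 11.9 ± 0.683 CPM after ACF and 14.9 ± 2.33 CPM after sham, and in C57_wt 16.1 ± 2.71 CPM after ACF and 16.8 ± 2.01 CPM after sham.

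In ACF libraries by title, 3 of 19 NAD consumers passed, where 13.6% of all genes did, and 5 of 19 without library 489, 2 higher and 3 lower, where 16.7% did. Parp3, a poly(ADP-ribose) polymerase of DNA repair, was lower at -0.79 (SE 0.11, edgeR adjusted p = 4.76e-05), and Bst1, an NAD glycohydrolase related to Cd38, was lower at -1.71 (SE 0.396, adjusted p = 0.00612). Parp10, a mono-ADP-ribosyltransferase, was higher at 0.56 (SE 0.168, adjusted p = 0.0313). Parp3 averaged 11.6 ± 1.53 CPM in C3H_MNX and 11.0 ± 2.05 CPM in C3H_wt, against 19.7 ± 2.2 CPM in C57_MNX and 19.2 ± 2.31 CPM in C57_wt (SD, n = 3 each). In wild type alone Parp3 (-0.81) and Bst1 (-2.003) passed, and Parp10 (0.45) did not. Without library 489 Parp10 passed in wild type (0.79, edgeR adjusted p = 0.0357) and Bst1 did not (-0.92, adjusted p = 0.262).

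Of the NADH shuttles 1 of 10 passed by title, again beside 13.6% of all genes, the mitochondrial glycerol phosphate dehydrogenase Gpd2 at -0.57 (SE 0.0956, edgeR adjusted p = 0.00033). Of the NADPH pool 3 of 12 passed with all libraries, and 7 of 12 without library 489 (3 higher, 4 lower), where 16.7% of all genes did. The 3 were the mitochondrial malic enzyme Me2 at 0.69 (SE 0.161, adjusted p = 0.00633), the folate enzyme Aldh1l1 at 1.14 (SE 0.255, adjusted p = 0.00468) and Mthfd2 at -1.53 (SE 0.407, adjusted p = 0.0157). In wild type Gpd2 (-0.44), Aldh1l1 (1.11) and Mthfd2 (-2.05) passed, of which Aldh1l1 (edgeR adjusted p = 0.0762) and Mthfd2 (adjusted p = 0.384) did not without library 489. Among the other sirtuins Sirt7 passed in wild type alone, at -1.20 (SE 0.378, edgeR adjusted p = 0.0446), and 0 of 4 passed without library 489, where it stood at -0.39 (adjusted p = 0.466).

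By edgeR 0 of 9 other NAD synthesis genes passed by title with all libraries, where 13.6% of all genes did. An unadjusted p below 0.05 was found for 3 of the 9, and for 3921 of the 13440 genes tested. Without library 489, 1 of 9 passed by title, where 16.7% of all genes did. Pnp, the purine nucleoside phosphorylase that can split nicotinamide riboside, passed without library 489, at 1.77 (SE 0.187, edgeR adjusted p = 7.82e-07), against 0.94 (adjusted p = 0.0939) with it. Pnp averaged 13.3 ± 2.3 CPM in C3H_MNX and 15.3 ± 4.8 CPM in C3H_wt, against 5.13 ± 1.09 CPM in C57_MNX and 10.9 ± 12.9 CPM in C57_wt (SD, n = 3 each), and the highest C57_wt value was 25.89 CPM. In wild type without library 489 it stood at 2.14 (edgeR adjusted p = 3.64e-05).

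In set B, by size and without a test, the nuclear log2 differences of the other NAD synthesis genes were led by Pnp (0.91), Afmid of the kynurenine route (0.74) and Naprt1 of the nicotinic acid route (0.59) on the higher side, and by Nadkd1, the mitochondrial NAD kinase (-0.22), and Mcart1, the mitochondrial NAD carrier (-0.21), on the lower side. Parp10 stood at 0.69, Bst1 at -1.24, Parp3 at -0.65 and Parp9 at -0.52. Slc25a13 (0.52), Gpd1 (0.23) and Gpd2 (-0.54) led the shuttles, and Me2 (0.68), Pgd (0.53), Nnt (0.31) and Me1 (-0.36) the NADPH pool. The median over the 4 other sirtuins was 0.05.

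Among the genes whose log2 CPM followed Nmrk2 most closely over the 24 libraries of set B were Kif5a (Pearson r = 0.929), D630045M09Rik (0.921), Thbs4 (0.920) and Gm6682 (0.917). These 4 were higher in C3Hn, by 1.93 (Thbs4) to 4.48 (Gm6682) on the log2 scale. All were low in C57n, with means of 1.309 CPM (Thbs4), 0.709 CPM (Kif5a), 0.368 CPM (D630045M09Rik) and 0.026 CPM (Gm6682). The Gm6682 median there was 0 CPM, against a mean of 0.739 CPM in C3Hn, so its log2 difference rests on very few counts. The libraries form 2 clusters by nucleus, so r describes that split and carries no test. Over the 24 libraries of set A the correlation with Nmrk2 was, among these 4, highest for Thbs4, the matricellular thrombospondin 4, at 0.657, and lowest for Kif5a, a neuronal kinesin heavy chain, at 0.337. Thbs4 averaged 8.53 ± 3.8 CPM under C3H titles and 2.33 ± 1.08 CPM under C57 titles in ACF libraries, and 4.51 ± 1.16 CPM under C3H titles and 1.63 ± 0.408 CPM under C57 titles in sham libraries (SD, n = 6 each).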

How the data were processed

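RNA sequencing of mouse cardiomyocytes gave 48 libraries. The authors deposited expected counts per gene symbol (30743 rows), not normalized, of which 13.9% were not whole numbers. Per the submitters' processing notes CASAVA 1.8.2, Bowtie, RSEM 1.2.0 and mm9 were used, while the labels' protocol describes a provider's own mapping, and which of them made the table is not settled. RSEM shares reads among near-identical genes. An effect of C3H sequence differences on mapping was not tested.

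Expected counts were rounded and tested in R 4.3.3 with edgeR 4.0.16 (TMM, quasi-likelihood F test, low-count filter by group, Benjamini-Hochberg over all genes, threshold 0.05), in 1 model per set. CPM used TMM library sizes. DESeq2 1.42.0 and the fits below were alternatives. Replicate numbers are unique to each library. In each of 84 within-group pairs the counts differed by more than sampling noise (chi-square over degrees of freedom at least 4.042), so none was treated as a duplicate deposit. This does not show that libraries came from separate animals. Groups came from titles and labels, and both are given where they disagree.

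All 10 members were reported in every comparison, pathway genes where they passed (up to 4 per list and direction), up to 3 per list and direction by size in set B among genes whose mean log2 CPM was 1 or more, and the 5 genes most like Nmrk2, of which 1 is not reported here. The members and lists were chosen with earlier results of these data known.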

Additional observations from a re-analysis of the deposited data

Results flagged for a closer look

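In set B, 40 sets of 6 libraries (10 members in 4 groups) were examined for a library far from the other 5, and 3 were found, where chance gives about 1 in 20. Nmnat1 in C3Hn:C3Hmt library 23 was 18.88 CPM, with the next library at 22.47 CPM and the highest at 24.07 CPM. Library 23 also had the highest fibroblast marker sum of set B (812.1 CPM), whose part in the Nmnat1 level was not tested. Sirt3 in C57n:C3Hmt library 7 was 32.77 CPM, with the next at 27.18 CPM and the lowest at 24.52 CPM. Nnmt in C3Hn:C3Hmt library 22 was 0 CPM, where the other 5 libraries ran from 0.1646 to 0.2507 CPM on 3 to 7 counts.

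Over 60 comparisons (each member in each pairing of genotypes), 1 member moved in opposite directions after ACF in all libraries of both genotypes. The number that chance would give was not computed. For Sirt3 all 3 C3H_wt ACF libraries lay above the mean of C3H_wt sham libraries, by 0.28 on average (log2), and all 3 C57_wt ACF libraries lay below the mean of C57_wt sham libraries, by -0.51 on average. The difference of 0.79 was not tested. Library 489, at 7.791 CPM, is 1 of the 3 C57_wt libraries.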

How the results depend on the processing

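Of the results recomputed under settings other than leaving out 1 library, 358 member values and 116 counts were graded as unchanged. For tested member values this means the same sign and side of the threshold, and for counts a similar size. For the untested set B nuclear values it means a shift below the within-group SD. Of the rest, 29 tested member values turned sign, 11 gained a call and 6 lost one, and 6 set B nuclear values moved further. Among the counts 30 rose and 6 fell. The cause of the changes below was not tested.

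With DESeq2 in place of edgeR the genes past the threshold numbered 244 for the mean ACF effect (37 by edgeR), 176 in C57_wt, 83 in C3H_wt, 1 in C57_MNX, 3 in C3H_MNX, 2 for C3H minus C57 titles, 15 and 7 for the mitochondria on the C57 and the C3H nucleus and 332 for the difference between the nuclei, and 1 member passed for ACF. Without libraries 489 and 6756 they numbered 344 for the mean ACF effect, with 1 member, and 1 in C57_wt, 192 in C3H_wt, 2 in C3H_MNX, 1 for C3H minus C57 titles and 2956 for the nucleus in ACF libraries by title (1831 with all), with 5 members. Without library 6763 as well, chosen after the data were seen, they numbered 332 for the mean ACF effect, with 1 member, 3 in C57_wt, 327 in C3H_wt, 3 in C3H_MNX, 1 for C3H minus C57 titles and 3460 for the nucleus by title, with 5 members. With the L code as a covariate they numbered 0 in C3H_MNX, 766 for the nucleus by title and 183 in wild type (1626 without it), each with 0 members, 30 for the mitochondria on the C3H nucleus, 2 for the difference between the nuclei and 1399 for the nucleus in set B (4776 without it). The count for C3H minus C57 titles was 1 without the 6 most abundant features and 1 without a filter on low counts.

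Signs turned, none of them on a called value, as follows. Without libraries 489 and 6756 the mean ACF effect was 0.11 for Nmnat1, 0.036 for Nmnat3, -0.044 for Nadk, 0.055 for Sirt3 and -0.27 for Cd38, the nuclear effect by title was -0.034 for Sirt1, and in wild type it was -0.32 for Nampt, -0.056 for Sirt5 and 0.72 for Cd38. Without library 6763 as well the ACF values were 0.081 for Nmnat1, -6e-04 for Nadk, 0.023 for Sirt3 and -0.19 for Cd38, and the nuclear ones -0.035 for Sirt1 by title and -0.32, -0.056 and 0.72 for Nampt, Sirt5 and Cd38 in wild type. With the L code the ACF effect on Nmrk2 in C57_wt was -0.48, the nuclear effect was -0.14 for Sirt1 by title, -0.24 for Nampt and 0.54 for Cd38 in wild type, and the mitochondrial effect was 0.056 for Sirt3, 0.073 for Sirt5 and 0.053 for Cd38 on the C57 nucleus, -0.062 for Nmnat1 on the C3H nucleus and 0.058 for Nmrk2 between the nuclei. Cd38 in wild type was 2e-04 with DESeq2 size factors, 0.0019 without the 6 most abundant features and 0.060 without the filter.

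Leaving out 1 library at a time, the mean ACF effect had 12 to 174 genes, with Nmnat1 at -0.14 to 0.059, Nadk at -0.0068 to 0.21, Sirt3 at -0.11 to 0.0075 and Cd38 at -0.14 to 0.12. C57_wt had 0 to 874 genes and Nmrk2 at -0.50 to 1.41, C3H_wt 0 to 69 genes, C3H_MNX 0 to 1, and C3H minus C57 titles 0 to 1 with Nmrk2 at -0.036 to 1.15. The nuclear effect by title had 1220 to 2657 genes and 1 to 3 members, with Nampt at -0.26 to 0.19, Nadk at -0.42 to 0.019, Sirt1 at -0.025 to 0.092, Sirt5 at -0.059 to 0.34 and Cd38 at -0.11 to 0.53. In wild type it had 584 to 3417 genes and 0 to 4 members, with Nampt at -0.32 to 0.56, Sirt1 at -0.21 to 0.023, Sirt5 at -0.055 to 0.76 and Cd38 at -0.28 to 0.72. The mitochondrial effect on the C57 nucleus had 0 to 2 genes, with Sirt1 at -0.11 to 0.036, Sirt3 at -0.20 to 0.016 and Sirt5 at -0.11 to 0.056, and on the C3H nucleus Nmnat1 was at -0.011 to 0.062 and Sirt1 at -0.087 to 0.0061. The difference between the nuclei had 0 to 422 genes and Nmrk2 at -0.35 to 0.017.

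No paired analysis was possible because each replicate number belongs to 1 library. Nnmt, at 0 to 66 counts a library, is the member whose values depth limits most.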
